A study of Mus musculus with 6 samples.

Results

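Eph receptors and ephrins are the membrane proteins through which cells of neighbouring hindbrain segments repel one another, and 10 of their genes were followed here in rhombomere 4 of Hoxb1 mutant mouse embryos. They were the receptor genes Epha2, Epha3, Epha4, Epha7, Ephb2 and Ephb3 and the ephrin genes Efna5, Efnb1, Efnb2 and Efnb3. Members were all probe sets of the array whose single gene symbol in the platform annotation is one of these names, which gave 19 probe sets of 9 genes among 22626 probe sets tested. No probe set is listed for Ephb2 in the annotation used here, and that receptor was not analysed. Each group held 3 Affymetrix mouse 430A arrays, and each array carried RNA of 1 pool of rhombomere 4 segments dissected from several embryos at E10.5, with some surrounding branchial arch tissue. One group was Hoxb1 mutant and the other was described as normal or wild type. The allele, the strain and the sex of the embryos are not stated in the sources used here. The submitters state that the pools are independent biological replicates, and which transcripts of the segment depend on Hoxb1 is the question that the comparison addresses.

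Eph receptors are receptor tyrosine kinases, and both they and their ephrin ligands are held in the membrane, so that signalling needs contact between cells and can run into both partners. Ephrin-A proteins are tied to the membrane by a lipid anchor and ephrin-B proteins span it, and EphA receptors mainly bind the former and EphB receptors the latter, with Epha4 binding both. In the embryonic hindbrain the genes are expressed in alternating segments, with Epha4 high in rhombomeres 3 and 5 under the zinc finger factor Egr2 and several ephrin-B genes high in the even-numbered segments, and the meeting of receptor and ligand keeps the cells of the segments from mixing. Epha2 is known from mouse genetics as a gene expressed in rhombomere 4.

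Hoxb1, the targeted gene, gave intensities of 341, 378 and 588 in wild-type replicates 1, 2 and 3 and 60.8, 35.3 and 50.03 in mutant replicates 1, 2 and 3. All 3 mutant values lay below 61.5, the 95th percentile of 27 bacterial control probe sets that have no mouse target and served as the measure of background. With the mutant level known only as a bound, Hoxb1 was at least 6.88-fold higher in wild type, from the geometric mean of the wild-type arrays over that background (limma adjusted p = 0.0695). The sources used here do not say whether the mutation removes the sequence this probe set reads, so the labels are checked by it only in that case. The intensities were scaled by the authors so that the mean on each array, with 2% trimmed at each end, was 500.0, and array medians ran from 187 to 214. Wild-type replicates 2 and 3 stood apart in their 18S ribosomal RNA signal, at 12.1 and 11.3 on the log2 scale, while the other 4 arrays ran from 6.36 to 7.03. The hindbrain markers Hoxa2 and Hoxb2 were above background on all arrays. Otx2, a marker of forebrain and midbrain, gave 60.8 to 103, above background on 5 of 6 arrays. All its values lay under 122, the highest single value of the bacterial controls, and so within the range of those controls. En1 and En2, of the midbrain and anterior hindbrain, and Fgf8, of the isthmus, stayed below background on all 6 arrays.

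No difference between mutant and wild-type tissue was detected in the receptors and ephrins of the segment borders. None of the 19 probe sets passed an adjusted p of 0.05 in limma, 0 had an unadjusted p under 0.05, and in 0 of them were the 3 mutant arrays all above or all below the 3 wild-type arrays. Over all 22626 probe sets, 0% passed the adjusted threshold, 5.76% had an unadjusted p under 0.05 and 12% had groups that did not overlap. The lowest unadjusted p among members was 0.190, for an Efnb2 probe set (limma adjusted p = 0.856). In all 19 probe sets the difference between the group means was smaller than the larger of the 2 groups' standard deviations on the log2 scale.

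A difference is the mutant minus the wild-type mean of log2(intensity + 16), a scale that shrinks the change of a dim probe set. Of the 19 probe sets, 16 were above background on all 6 arrays, 2 on some and 1 on none. The median difference of the 19 probe sets was -0.06, against -0.02 over all probe sets. Of the 19, 14 had a lower mean in mutants, and 12258 of all 22626 did. With quantile normalization, or with each array centred on its median, 11 of the 19 were lower. The median over all probe sets was then 0.0055 and 0.032, and centring moves every difference by the same amount. With the 18S signal as a covariate, or without both arrays of high 18S signal, 10 were lower. The median over all probe sets was then -0.020 and -0.028. Without mutant replicate 3, 9 were lower, with a median of 0.02, against -0.0035 over all probe sets. The unadjusted 95% interval of the difference lay between -1 and 1 in 17 of the 19 probe sets and between -0.5 and 0.5 in 9 of them. The other 2 belong to Epha4 and Epha7. Of the 16 probe sets above background on all arrays, 14 had intervals between -1 and 1 and 7 between -0.5 and 0.5. For these 14 a 2-fold change of the signal on this scale lay outside the interval. Near or below background the interval describes the signal of the probe set and sets no limit on a decrease of the RNA. A p above the threshold does not show that the levels were equal, and with 3 arrays a group a change that lies inside these intervals cannot be resolved. In bulk tissue, fewer cells of a type and less RNA per cell cannot be told apart.

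**Figure D1:**
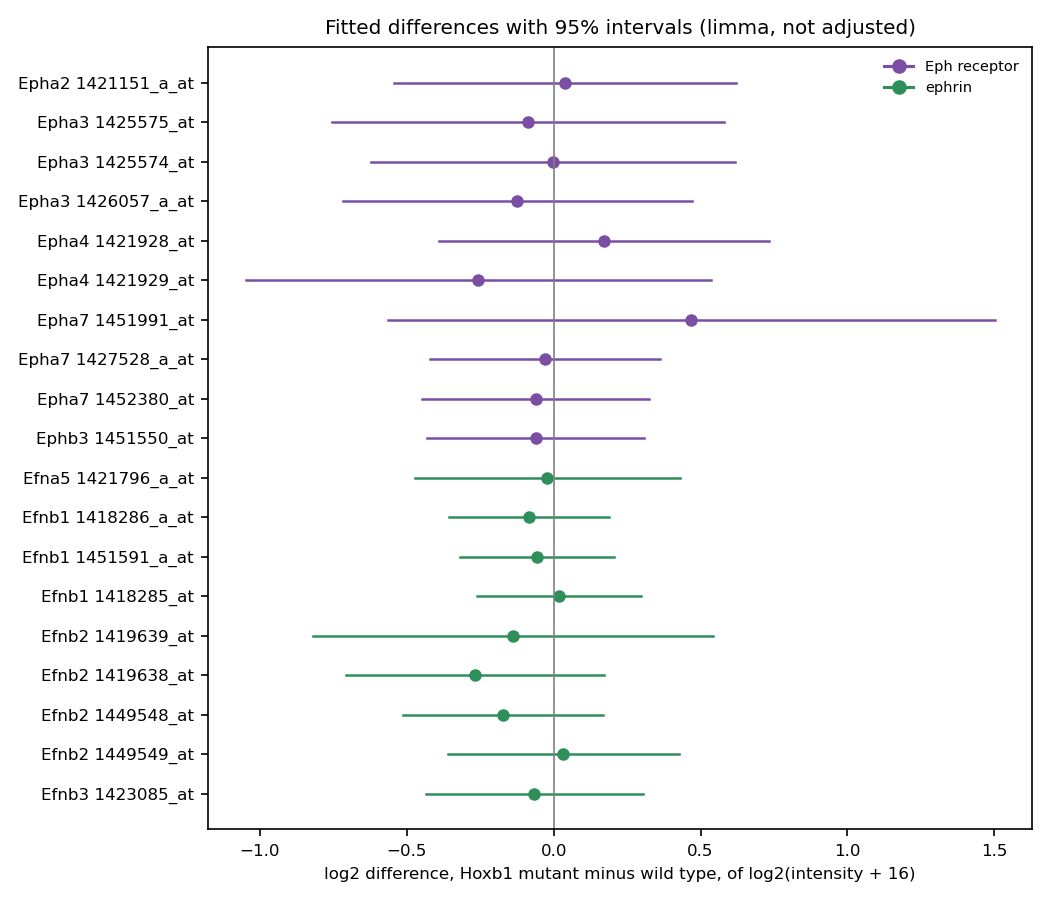
Log2 differences, mutant minus wild type, of the 19 Eph and ephrin probe sets on the horizontal axis, with unadjusted 95% intervals from limma as bars. All 19 intervals cross 0, and the widest, of Epha7 1451991_at, runs from -0.56 to 1.501.

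Epha2, the EphA receptor known from rhombomere 4, has 1 probe set here, 1421151_a_at. It gave 84.1, 136 and 66.3 on wild-type arrays 1 to 3 and 77.8, 107 and 102 on mutant arrays 1 to 3. The group means were 95.5 ± 36.3 in wild type and 95.6 ± 15.6 in mutants (SD, n = 3 each), and all mutant values lay inside the wild-type range. The log2 difference was 0.04 (SE 0.24, 95% interval -0.54 to 0.62; limma adjusted p = 0.989). All 6 values exceeded the 95th percentile of the bacterial controls, and 5 of them lay under 122, the highest single value of those controls, so the probe set had little room to show a decrease. The wild-type arrays lay further apart than the mutant ones.

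Epha3, an EphA receptor best known from axon guidance and heart development, has 3 probe sets. The brightest, 1425575_at, gave 284, 243 and 254 on the wild-type arrays and 338, 283 and 150 on the mutant arrays, with mutant arrays both above and below all wild-type ones. Its log2 difference was -0.09 (SE 0.28, 95% interval -0.75 to 0.58). The probe set 1425574_at gave 213, 180 and 144 on the wild-type arrays and 253, 174 and 124 on the mutant arrays, again with mutant replicate 1 highest and mutant replicate 3 lowest of all arrays. The dimmest, 1426057_a_at, gave 99.1, 121 and 60.9 on the wild-type arrays and 93.4, 93.7 and 62.1 on the mutant arrays, with a log2 difference of -0.12 (SE 0.25). Wild-type replicate 3 lay below the bacterial 95th percentile of 61.5 in this probe set. All its values lay under 122, the highest single value of those controls, so it had little room to show a decrease. Without mutant replicate 3 the difference of all 3 probe sets was above 0, at 0.24, 0.23 and 0.04, and without mutant replicate 1 it was below 0, at -0.31, -0.24 and -0.20.

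Epha4, the receptor that marks rhombomeres 3 and 5 on either side of rhombomere 4, was measured by 2 probe sets that differed in sign. The brighter, 1421928_at, gave 515, 491 and 434 on the wild-type arrays and 788, 469 and 428 on the mutant arrays. Mutant replicate 1 stood well above the other 5 arrays, and the other mutant arrays lay close to the lowest wild-type value. The log2 difference was 0.17 (SE 0.24, 95% interval -0.39 to 0.73), and -0.09 without mutant replicate 1. The second, 1421929_at, gave 199, 182 and 234 on the wild-type arrays and 302, 135 and 115 on the mutant arrays, so that mutant replicate 1 was the highest array and the other 2 mutants were the lowest. Its log2 difference was -0.26 (SE 0.33, 95% interval -1.05 to 0.53). Without mutant replicate 1 it was -0.65, with an unadjusted p of 0.00672 and a limma adjusted p of 0.529. That was the lowest adjusted p of any member in the settings tried. Without mutant replicate 2 the difference was -0.11, and without mutant replicate 3 it was -0.0084.

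Epha7, another EphA receptor of alternating hindbrain segments, gave one of the widest spreads of all probe sets. Its probe set 1451991_at gave 277, 122 and 402 on the wild-type arrays and 227, 423 and 402 on the mutant arrays. Wild-type replicate 2 was the lowest array and mutant replicate 2 the highest, and the groups overlapped. The log2 difference was 0.47 (SE 0.43, 95% interval -0.56 to 1.501; limma adjusted p = 0.879), the largest among members. It was 0.02 without wild-type replicate 2 and 0.82 without wild-type replicate 3. The probe set 1427528_a_at of the same gene gave 224, 265 and 232 on the wild-type arrays and 295, 206 and 213 on the mutant arrays, a log2 difference of -0.03 (SE 0.16, 95% interval -0.42 to 0.36). The third probe set, 1452380_at, ran from 38.9 to 59.8 and was below background on every array.

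Ephb3, an EphB receptor that binds ephrin-B ligands, has 1 probe set, 1451550_at. It gave 379, 377 and 499 on the wild-type arrays and 435, 407 and 353 on the mutant arrays, with the mutant arrays on both sides of the lower wild-type values. The group means were 418 ± 69.7 and 398 ± 41.5, and the log2 difference was -0.06 (SE 0.15, 95% interval -0.43 to 0.31; limma adjusted p = 0.962).

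**Figure D2:**
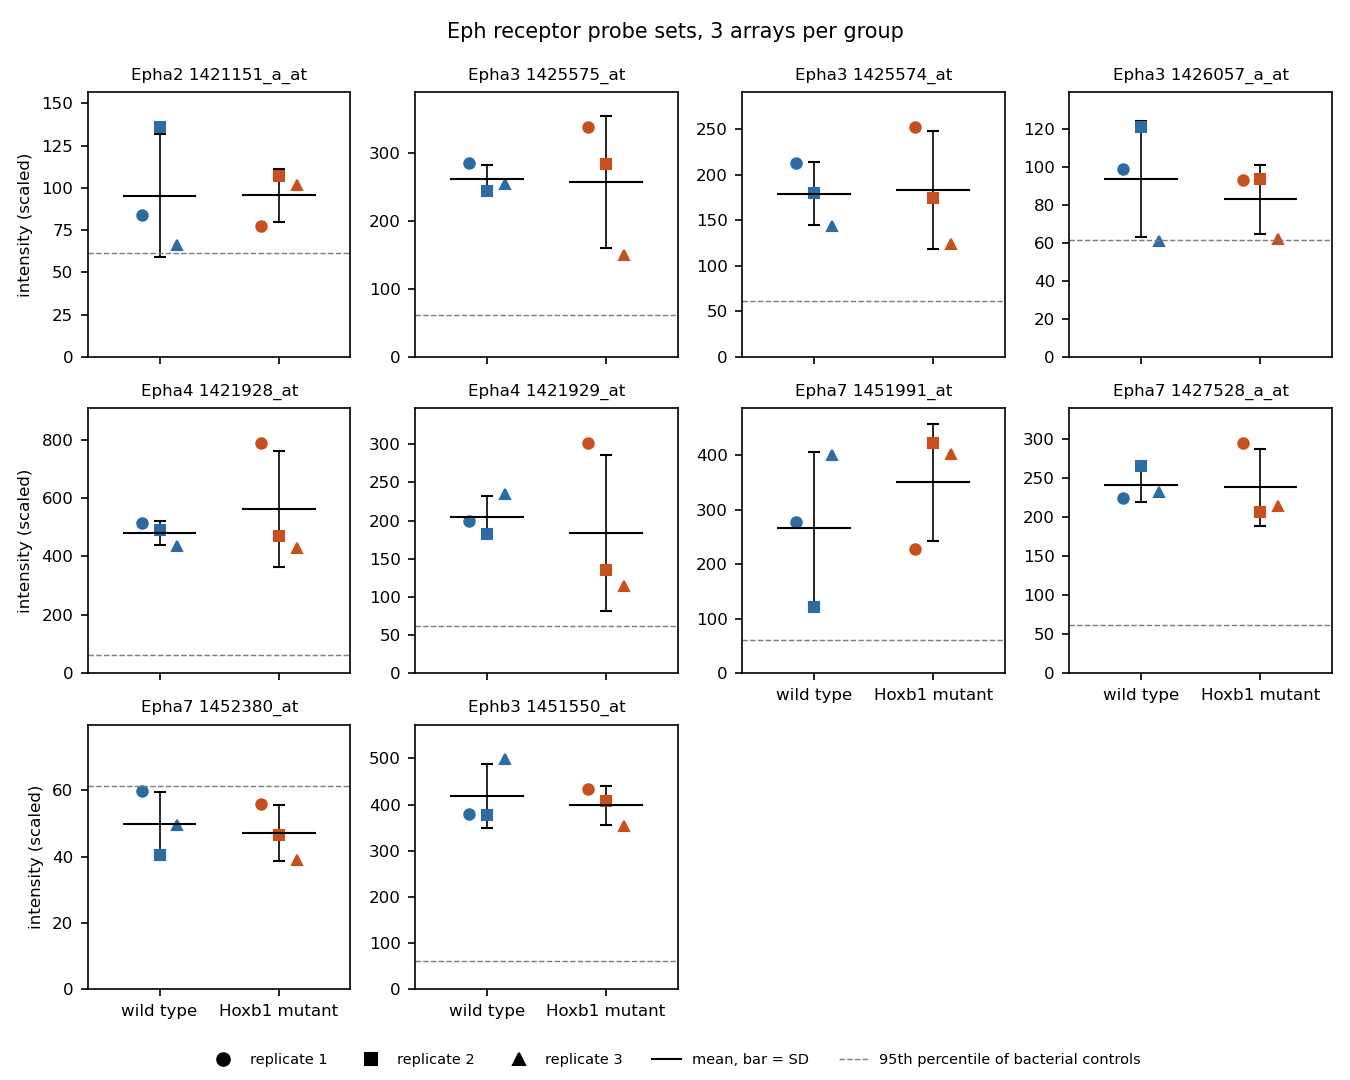
Scaled intensity of the 10 Eph receptor probe sets on linear axes from 0, with 1 symbol per array, the group mean as a line, the SD as a bar and the bacterial 95th percentile of 61.5 dashed. Groups overlap in every panel, and mutant replicate 1 is the highest array in both Epha4 panels, at 788 and 302.

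Efna5, a lipid-anchored ligand of EphA receptors and the only ephrin-A among the members, was dim. Its probe set 1421796_a_at gave 46.2, 45.7 and 77.6 on the wild-type arrays and 48.4, 55.6 and 58.6 on the mutant arrays. Only wild-type replicate 3 exceeded the bacterial 95th percentile, so on the other 5 the signal cannot be told from background. Promoter windows of 300 bases, 250 before and 50 after each annotated start in RefSeq (GRCm38.p6), were found for 9 of the 10 member genes, in 10 windows, and searched on both strands for 2 motifs. The Hox-Pbx motif TGATNNAT, of the kind bound by Hoxb1 with its cofactor Pbx, was in 0 of these 10 windows and in 8.85% of all 32851 windows. The Egr motif GCGNGGGCG, of the family of Egr2, was in 1 window, that of Efna5, and in 5.55% of all windows. With the Hox-Pbx motif in 0 member windows, the 2 motifs could not overlap there. The match is shown because it is the only one among the members, with its 9 bases in capitals, on the strand of the gene, where they read as the reverse complement of the motif.
Efna5 chr17:62881396-62881454, minus strand, GRCm38.p6: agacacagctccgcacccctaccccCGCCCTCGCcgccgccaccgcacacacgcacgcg
The capitals lie 112 to 104 bases before the annotated start. A match describes the letters of this window and is not evidence of binding.

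Efnb1, the X-linked ephrin-B gene expressed widely in neural crest and mesenchyme, was the most evenly measured member. The probe set 1418286_a_at gave 760, 848 and 832 on the wild-type arrays and 771, 714 and 816 on the mutant arrays, a log2 difference of -0.08 (SE 0.11, 95% interval -0.36 to 0.19). The probe set 1451591_a_at gave 611, 659 and 621 on the wild-type arrays and 627, 560 and 629 on the mutant arrays, a log2 difference of -0.06 (SE 0.11, 95% interval -0.32 to 0.21). The probe set 1418285_at gave 277, 268 and 259 on the wild-type arrays and 299.9, 271 and 247 on the mutant arrays, a log2 difference of 0.02 (SE 0.12, 95% interval -0.26 to 0.30). The 3 probe sets thus placed the mutant level within narrow bounds around wild type, between 0.782 and 1.23 times it on this scale over their 3 intervals.

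Efnb2, the ephrin-B gene of even-numbered rhombomeres and of arterial endothelium, has 4 probe sets, 3 of them with a lower mean in mutants. The probe set 1419638_at gave 662, 964 and 930 on the wild-type arrays and 624, 806 and 667 on the mutant arrays, with wild-type replicate 1 below 2 of the mutant arrays. Its group means were 852 ± 165 and 699 ± 94.9, and the log2 difference was -0.27 (SE 0.18, 95% interval -0.71 to 0.17; limma adjusted p = 0.856). With the 18S signal as a covariate it was 0.03, and without both wild-type arrays of high 18S signal it was 0.07. Wild-type replicates 2 and 3, the 2 arrays of high 18S signal, also gave the highest values of this probe set, and the part of that signal in the difference was not tested. The probe set 1449548_at gave 301, 294 and 297 on the wild-type arrays and 262, 309 and 220 on the mutant arrays, a log2 difference of -0.17 (SE 0.14, 95% interval -0.51 to 0.17). Here the wild-type arrays were close together and the mutant arrays spread to both sides of them. The difference was -0.06 without mutant replicate 3 and -0.29 without mutant replicate 2. The brightest, 1419639_at, gave 957, 663 and 1202 on the wild-type arrays and 588, 1037 and 933 on the mutant arrays, a log2 difference of -0.14 (SE 0.29). The last, 1449549_at, gave 298, 274 and 216 on the wild-type arrays and 287, 290.3 and 227 on the mutant arrays, a log2 difference of 0.03 (SE 0.16).

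Efnb3, the ephrin-B gene of the ventral midline and of neurons, has 1 probe set, 1423085_at. It gave 678, 727 and 960.4 on the wild-type arrays and 726, 725 and 783 on the mutant arrays. The mutant arrays lay inside the wild-type range, whose upper end was set by replicate 3. The group means were 788 ± 151 and 744 ± 33.2, with a log2 difference of -0.07 (SE 0.16, 95% interval -0.44 to 0.30; limma adjusted p = 0.959).

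**Figure D3:**
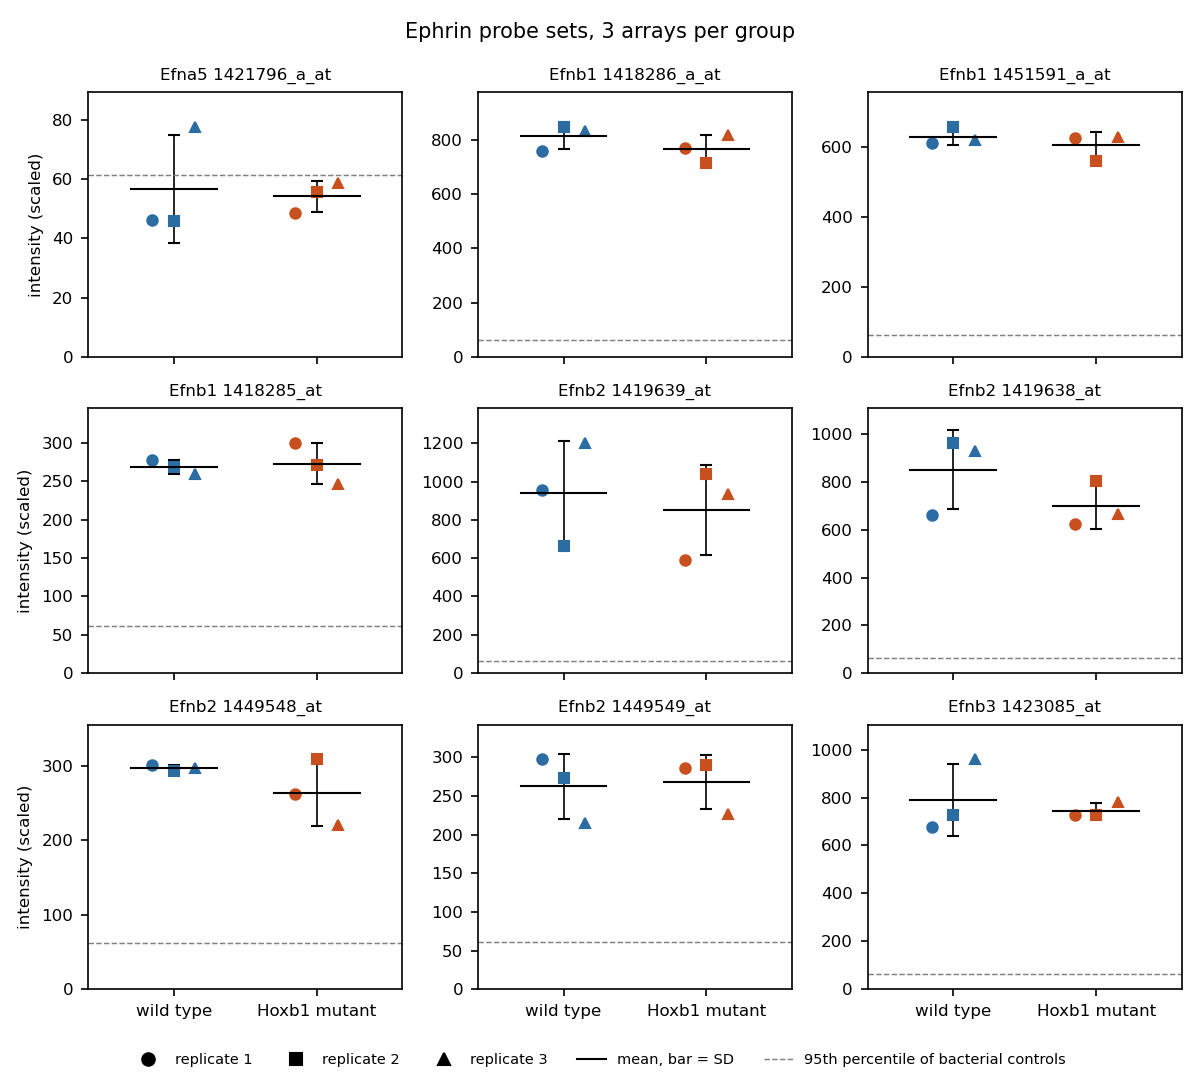
Scaled intensity of the 9 ephrin probe sets on linear axes from 0, with 1 symbol per array, the group mean as a line, the SD as a bar and the bacterial 95th percentile of 61.5 dashed. The 3 Efnb1 panels are tight, and the Efnb2 probe set 1419638_at has its highest values, 964 and 930, on wild-type replicates 2 and 3.

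The members varied between pools of 1 genotype to very different degrees. The spread within groups, as the pooled SD of log2 values, was set against probe sets whose mean log2 level lay within 0.25 of the member's. The 3 Efnb1 probe sets lay at percentiles of 8.13 to 15.4 of that spread, with SDs of 0.08 to 0.10. Both Epha4 probe sets lay at 94.5 and 97.2, the 2 brighter Epha3 probe sets at 95.6 and 89.4, Epha7 1451991_at at 99.6 and Efnb2 1419639_at at 98.8. Other probe sets of the last 2 genes spread less, with Epha7 1427528_a_at at 50.7 and 1452380_at at 13.4, and Efnb2 1419638_at at 86.3, 1449548_at at 37.0 and 1449549_at at 55.98. In Epha4 the SD was 0.12 and 0.17 among wild-type arrays and 0.46 and 0.69 among mutant arrays. Ephb3 and Efnb3 lay at 58.98 and 69.7, and Epha2, with an SD of 0.35, at 69.0. The intervals of the differences follow this spread, reaching 0.26 to either side for the tightest Efnb1 probe set and 1.03 for Epha7 1451991_at.

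Among the receptors, mutant replicates 1 and 3 were most often the extremes. Of the 10 receptor probe sets, mutant replicate 1 was the highest array in 5 and mutant replicate 3 the lowest in 6. The 5 belong to Epha3, Epha4 and Epha7 only, and the 6 to these and Ephb3. Both Epha4 probe sets and the 2 brighter ones of Epha3 are in each count. Probe sets of 1 gene are not independent. Over all probe sets, mutant replicate 1 was highest in 25.2% and mutant replicate 3 lowest in 22.0%. Egr2, which drives Epha4 in rhombomeres 3 and 5, followed the same order at its ends, with 100.3, 93.4 and 80.0 on the wild-type arrays and 117, 77.4 and 74.4 on the mutant arrays. All these Egr2 values lay under 122, the highest single value of the bacterial controls, and so within the range of those controls. How much tissue of neighbouring segments each pool held is not stated in the sources used here, and its part in the spread of Epha4 was not tested. Among the ephrins no array took such a place, and the highest array was wild-type replicate 2 or 3 in 6 of 9 probe sets, which belong to 4 genes. These 2 arrays, those of high 18S signal, were highest in 18.2% and 20.2% of all probe sets. The part of that signal in the ephrin counts was not tested. Epha7 1451991_at and Efnb2 1419639_at shared a pattern that other probe sets of the same genes lacked, as both had their 2 lowest values on wild-type replicate 2 and mutant replicate 1.

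**Figure D4:**
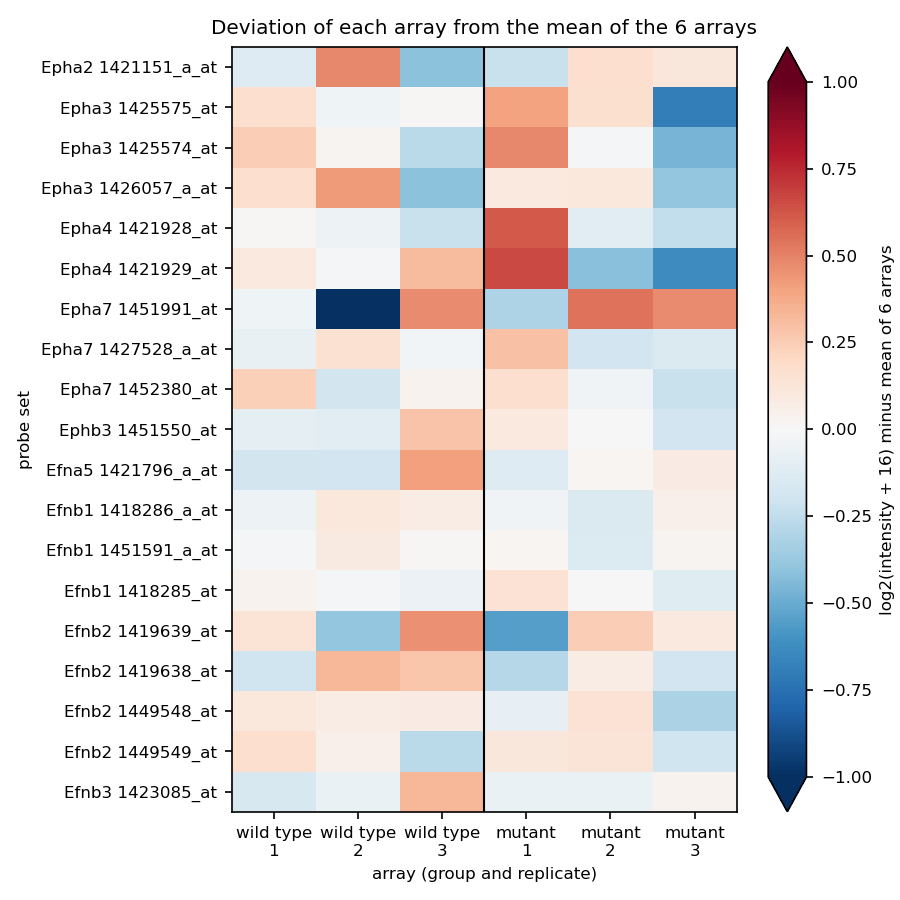
Deviation of each array from the mean of the 6 arrays in log2(intensity + 16), for the 19 probe sets in rows and the arrays in columns, with red above and blue below the mean. Mutant replicate 1 is red and mutant replicate 3 blue in both Epha4 rows and the 2 brighter Epha3 rows, and the Efnb1 rows are pale throughout.

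Other genes of the family gave no call. Of 12 further Eph and ephrin genes listed, 10 were measured, 6 receptors and 4 ephrins, each taken by its brightest probe set. None passed the adjusted threshold in limma, 0 had an unadjusted p under 0.05, and in 0 did the groups not overlap, against 0%, 5.45% and 12.3% of 12393 genes by their brightest probe sets. The median log2 difference was -0.12 for the receptors and -0.01 for the ephrins, and -0.02 over all genes. Epha5, an EphA receptor of axon guidance, gave 102, 83.9 and 66.5 on the wild-type arrays and 54.8, 51.9 and 76.0 on the mutant arrays, a log2 difference of -0.38 (SE 0.19) with 1 of 3 mutant arrays above background. Ephb4, the venous partner of Efnb2, gave 378, 608 and 625 on the wild-type arrays and 394, 435 and 443 on the mutant arrays, a log2 difference of -0.30 (SE 0.21). Wild-type replicate 1 lay below all mutant arrays in Ephb4, and replicates 2 and 3, the arrays of high 18S signal, gave its highest values. The part of that signal in Ephb4 was not tested. The receptors Epha1, Epha6 and Ephb6 gave log2 differences of 0.20, 0.13 and -0.05, and Epha8 stayed below background on all arrays. The ephrins Efna1, Efna2, Efna3 and Efna4 gave 0.21, -0.08, 0.06 and -0.11.

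Partners that carry Eph and ephrin signals into the cell gave no call either. Of 36 listed, 30 were measured, 27 of them above background on all arrays, and 17 were lower and 13 higher in mutants with a median log2 difference of -0.08. None passed the adjusted threshold in limma and 0 had an unadjusted p under 0.05. The groups did not overlap in 1 of the 30, against 12.3% of all genes. This was Rgs3, a regulator of G-protein signalling that binds ephrin-B tails. Rgs3 gave 638, 760 and 794 on the wild-type arrays and 629, 563 and 593 on the mutant arrays. Its log2 difference was -0.28 (SE 0.13, limma adjusted p = 0.833). Its highest values were on wild-type replicates 2 and 3, the arrays of high 18S signal, and the part of that signal was not tested. The other named partners of smallest p were Grip1, a scaffold protein for ephrin-B, at -0.23 (SE 0.15), and the guanine exchange factor Vav2, which was below background on all arrays. Among those higher in mutants, Vav3, a related exchange factor, had 0.32 (SE 0.21), and the adaptor genes Crk and Nck1 had 0.18 and 0.16 (SE 0.13 and 0.12).

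**Figure D5:**
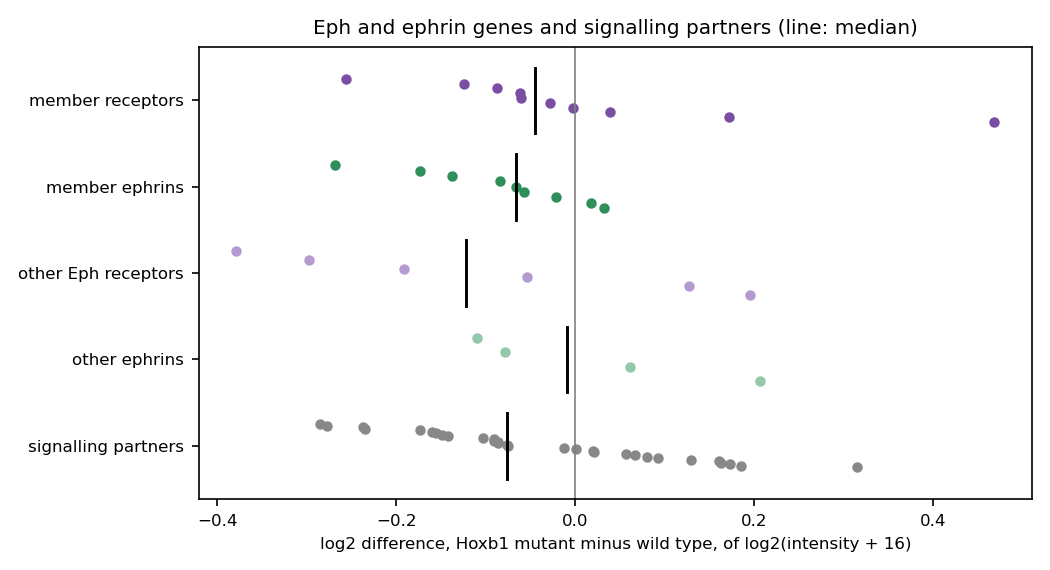
Log2 differences, mutant minus wild type, with 1 point per probe set for the members (10 receptor and 9 ephrin probe sets) and 1 per gene for 6 other receptors, 4 other ephrins and 30 signalling partners, and the median as a line. All points lie between -0.38 and 0.47, and the medians between -0.12 and -0.01.

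Transcription factors known to set segmental Eph expression were measured for 5 of 8 genes listed. Besides Hoxb1, Hoxa2, which is needed for normal Eph expression in rhombomeres 2 and 3, had a log2 difference of -0.0045 (SE 0.15), and Egr2 had -0.04 (SE 0.18). Egr2 was dim, with all values under the highest bacterial control value of 122, so it had little room to show a decrease. Hoxb2, a Hoxb1 target in rhombomere 4, gave 1320.3, 1380 and 1411 on the wild-type arrays and 1322, 1076 and 1052 on the mutant arrays, a log2 difference of -0.26 (SE 0.13; limma adjusted p = 0.833), and the cofactor Meis2 had 0.02 (SE 0.12). Mutant replicate 1 was again the highest mutant array for Hoxb2, with a value inside the range of wild type.

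Markers of the cells in the dissected tissue were summed over genes on each array, as linear intensities, so that a sum weighs its brightest genes most. In the first list below, Col3a1 alone had means of 5045 in wild type and 4743 in mutants. Of that list 0 genes had an unadjusted p under 0.05 in limma, against 5.45% of all genes. The groups did not overlap in 1, against 12.3% of all genes. Over 12 genes of crest and arch mesenchyme, the intensity was 13769 to 15310 in wild type and 12740 to 13331 in mutants, with 10 of 12 genes lower and 0 at background on all arrays, where 6757 of all 12393 genes were lower. A further list held 3 measured genes, Egr2, Hoxb3 and Hoxa3, of which only Egr2 marks both rhombomeres 3 and 5. Its summed intensity was 478 to 484 in wild type and 284 to 389 in mutants, with 3 of 3 lower. Hoxb3 and Hoxa3 had log2 differences of -0.70 and -0.40 (limma adjusted p = 0.740 and 0.833), and Egr2, the gene of both segments, had -0.04. Over 5 genes of the hindbrain and rhombomere 4, Hoxb1 among them, the sum was 2718 to 2972 in wild type and 2000.4 to 2383 in mutants, with 5 of 5 lower. The brightest of them, Hoxb2, had means of 1370 in wild type and 1150 in mutants. For 7 neuronal genes it was 12864 to 15286 and 10607 to 13529, and for 8 endothelial genes 2368 to 2705 and 2342 to 2656, with overlapping groups in both and 7 of 7 and 6 of 8 genes lower. The groups also overlapped in the sums for neural progenitors, primitive red cells, surface and pharyngeal epithelium, cranial ganglia and macrophages. In the ganglia list 3 of 3 genes were lower, in neural progenitors 5 of 7 and in macrophages 4 of 5. The other 2 lists ran the other way, with 4 of 5 genes higher in primitive red cells and 4 of 7 in surface and pharyngeal epithelium. The part of these cells in the levels of Efnb1, Efnb2, Epha3 and Epha4 was not tested.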

How the data were processed

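Values in the deposited table are linear intensities, 1 for each probe set on each array, scaled by the authors to a common trimmed mean, as the numbers themselves show. The submitters' processing notes name affy, with no version, and the expression algorithm is not stated in the sources used here. Control probe sets, 64 of 22690, were left out of the tests. Symbols came from the platform annotation, updated through a RefSeq gene table (GRCm38.p6). Groups were compared on log2(intensity + 16) in R 4.3.3 with the moderated test of limma 3.58.1 (all 6 arrays, 2-sided, without covariates), and p-values were adjusted by Benjamini-Hochberg over 22626 probe sets at a threshold of 0.05. Standard errors and intervals are those of the moderated fit. The number of arrays limits the precision, as do the spread between pools and, for dim probe sets, the background.

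The members and gene lists were chosen with earlier results of these data known, as were the alternatives. Named were all member probe sets, Hoxb1, other Eph and ephrin genes and upstream regulators, and up to 3 signalling partners of smallest p in each direction, each gene by its brightest probe set. Marker genes named singly were chosen after their values were seen. On simulated data of 22626 probe sets, 200 of them changed in each of 5 draws, limma called 45.6% of the probe sets shifted by 1 log2 unit and 83.2% at 2 units. The draws had independent normal noise, and their 200 true changes make the adjusted threshold easier to pass. These shares therefore do not give the power of the real comparison. There limma called 0 probe sets, and Hoxb1 itself missed the threshold (limma adjusted p = 0.0695).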

Additional observations from a re-analysis of the deposited data

How the results depend on the processing

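No member passed the adjusted threshold under any of the alternatives run, and the lowest adjusted p in any of them was 0.529. Over all probe sets the count past the threshold was 0 as reported, 3 with quantile normalization, 4 with array medians centred, 2 without the dimmest 33.3%, 3 with trend and robust settings, 4 with array weights and 4 at a threshold of 0.10. Leaving out each array gave 0 to 1 members at an unadjusted p under 0.05, the 1 being Efnb2 1419638_at without wild-type replicate 1 (log2 difference -0.44, limma adjusted p = 0.794) or Epha4 1421929_at without mutant replicate 1. Whether the replicate numbers pair the samples is not known, and the sample titles carry the same code numbers in both groups. Deviations from the group means correlated at 0.05, -0.02 and 0.04 in same-numbered arrays and at -0.08 to 0.04 in the others. Such deviations cancel within each group, so these values cannot decide the question. With the replicate block 0 probe sets passed.

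Signs of the small differences turned in 26 of 195 values apart from single left-out arrays. The 195 include the trend and robust settings, the replicate block, the fit without the dimmest 33.3% and that with 1 probe set per gene. These leave the fitted difference unchanged, so no sign could turn there. Centring the medians moves every difference by the same amount, and the cause of the other turns was not tested. With quantile normalization Epha3 1425574_at, Epha7 1427528_a_at and Efna5 were at 0.057, 0.034 and 0.046, and with medians centred at 0.051, 0.025 and 0.032. With a pseudocount of 64, Epha3 1425574_at was at 0.0038. With array weights Efna5, Efnb1 1418285_at and Efnb2 1419639_at were at 0.074, -0.012 and 0.065. With the 18S covariate Epha7 1427528_a_at, Ephb3, Efna5, Efnb1 1418286_a_at, Efnb1 1418285_at, Efnb2 1419638_at, Efnb2 1449549_at and Efnb3 were at 0.10, 0.035, 0.099, 0.0078, -0.0075, 0.025, -0.11 and 0.083, and without both wild-type arrays of high 18S signal, where 1 wild-type array is left and assumed to vary like the mutants, at 0.063, 0.063, 0.17, 0.011, -0.027, 0.069, -0.15 and 0.13.

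Leaving out each array in turn, the log2 difference ran from -0.16 to 0.29 for Epha2, -0.31 to 0.24, -0.24 to 0.23 and -0.36 to 0.057 for Epha3 (1425575_at, 1425574_at and 1426057_a_at), -0.092 to 0.34 for Epha4 1421928_at, -0.18 to 0.060 and -0.17 to 0.043 for Epha7 1427528_a_at and 1452380_at, -0.13 to 0.068 for Ephb3 and -0.12 to 0.18 for Efna5. It ran from -0.049 to 0.084 for Efnb1 1418285_at, -0.36 to 0.10 and -0.094 to 0.14 for Efnb2 1419639_at and 1449549_at, and -0.16 to 0.082 for Efnb3. The sign held, with ranges of -0.65 to -0.0084 for Epha4 1421929_at, 0.020 to 0.82 for Epha7 1451991_at, -0.13 to -0.034 and -0.085 to -0.0039 for Efnb1 1418286_a_at and 1451591_a_at, and -0.44 to -0.17 and -0.29 to -0.057 for Efnb2 1419638_at and 1449548_at. Efna5 lay below background on most arrays and Epha7 1452380_at on every array, where a decrease could not be seen. Epha2 and Epha3 1426057_a_at lay near background and had little room to show a decrease.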
